A study of Mus musculus with 12 samples.

Results

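The 52 genes of the ubiquitin-specific protease (USP) family were examined in mouse oocytes with and without the RNA-binding proteins ZAR1 and ZAR2. They were taken by name, as every row of the 23230-gene table whose symbol was Usp followed by a digit. Of the 52 members, 44 reached at least 1 FPKM (a count of fragments divided by transcript length and library size) in at least 1 library and were tested with the 11502 genes that did so, and 8 did not. The study compared wild-type (WT) with Zar1/2-null oocytes at 3 stages, to ask how the maternal transcriptome depends on ZAR1/2 during growth and meiotic maturation. Both genes had been knocked out with CRISPR/Cas9, and all mice had a C57BL6/ICR hybrid background. Growing oocytes came from females labelled as 13.5 days old, an age that the study's methods give differently. Full-grown oocytes, at the germinal vesicle stage (GV), came from females aged 21 days, 44 h after pregnant mare serum gonadotropin (PMSG). Ovulated oocytes, labelled metaphase II (MII), were collected 16 h after human chorionic gonadotropin (hCG). The study describes meiosis I arrest in ovulated Zar1/2-null oocytes, so MII names the label and time of collection. In these libraries genotype and meiotic progress cannot be told apart at this stage. In a separate experiment the study arrested WT oocytes in meiosis I with nocodazole, and decay of selected mRNAs by RT-qPCR was not affected. From this it proposes that delayed decay came from the lack of ZAR1/2 and not from the arrest. Each of the 6 groups of genotype and stage held 2 Smart-seq2 libraries of 10 pooled oocytes, made from polyadenylated RNA without strand information. The labels do not say whether the libraries of a group came from separate animals, so p-values measure only the spread between these libraries, which may be technical. Since 10 oocytes were pooled, fewer contributing oocytes and less RNA per oocyte cannot be told apart.

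USP proteins cut ubiquitin from other proteins or from ubiquitin chains, with a cysteine protease domain that is shared across the family. They reverse what ubiquitin ligases add, and can spare a protein from the proteasome, alter its place in the cell or change the state of histones. In the oocyte, ubiquitin-dependent destruction of cyclin B and securin drives exit from the meiotic divisions, and maternal proteins are cleared after fertilization. Oocytes transcribe during growth, fall silent at the end of it, and complete maturation on stored mRNA.

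Most members share a catalytic cysteine. A pattern for the residues around it, known as the Cys box, was searched in the translated coding region of 1 transcript per gene in the mm9 annotation (GENCODE vM1). It was found in 38 of the 52 members, in 34 of the 44 that were tested (77.3%), and in 1 of 10722 other tested genes (0.00933%). Usp39, a spliceosome component, and Usp6nl, a relative of Rab GTPase-activating proteins that carries the prefix only, did not match it. Nor did Usp18, Usp21, Usp24, Usp34, Usp40, Usp42, Usp44, Usp48, Usp53 and Usp54, and Usp35 and Usp9y had no annotated coding region to search. A miss may come from the pattern or the transcript used, and does not show that the cysteine is absent. The lines below show 10 codons around the cysteine codon, which is in capitals, for the members on which the results turn. They lie in coding exons at chr5:74428507-74428536 (minus strand) for Usp46, chr5:147574955-147574984 (minus) for Usp12, chr1:74518215-74518244 (minus) for Usp37, chr4:98595016-98595045 (plus) for Usp1, chr7:6914756-6914785 (plus) for Usp29, chr3:32780369-32780398 (plus) for Usp13 and chr6:124772576-124772605 (minus) for Usp5. Usp46 beside Usp12 and Usp13 beside Usp5 are close paralogs.
Usp46: aacacaTGCtactgtaactccgtgcttcaa
Usp12: aataccTGCtactgcaactcagttcttcaa
Usp37: aatacaTGCtatatgaatgctatcttacaa
Usp1: aacactTGTtatctgaatagtattcttcag
Usp29: aatactTGTtacatgaattccattttgcaa
Usp13: aacagtTGCtacctcagttctgtcatgcag
Usp5: aacagcTGCtatctcaactccgtggtccag

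Stored oocyte mRNAs can be polyadenylated in the cytoplasm through a cytoplasmic polyadenylation element (CPE) close to the polyadenylation signal, so the annotated 3′ ends were searched on the transcribed strand for TTTTAT or TTTTAAT in the last 100 bases and for AATAAA or ATTAAA in the last 40. A CPE was present in 5 of 41 tested members with a 3′ UTR of that length (12.2%), beside 20% of 9779 tested genes. Both elements were present in 4 members (9.76%, beside 15.8% of genes), namely Usp7, Usp22, Usp28 and Usp37. A polyadenylation signal was found in 34 of the 41 (82.9%, beside 76.1%). The 3 shortest of these pairs are shown with both elements in capitals, at chr1:74482097-74482126 (minus) for Usp37, chr9:48850573-48850602 (plus) for Usp28 and chr16:8688828-8688857 (minus) for Usp7. A match is a description of the letters and was not tested as a working element.
Usp37: ttgTTTTAATgtgtgagagacATTAAAgcc
Usp28: gcaggTTTTATaaatgtgcAATAAAagtat
Usp7: aatTTTTATtctcccttaaatATTAAAtga

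The targeted genes were read first. Zar1l, the symbol of Zar2, was at 639 and 644 FPKM in the WT growing libraries and 17.5 and 13.2 in the Zar1/2-null ones, at 533 and 504 against 20.9 and 19.6 at GV, and at 3.13 and 4.72 against 1.36 and 1.01 at MII. Zar1 RNA was at 603 and 725 against 407 and 459.9 FPKM in growing oocytes and 439 and 423 against 136 and 203 at GV, but at 83.6 and 72.4 against 189.6 and 194 at MII, where the Zar1/2-null libraries were higher. Zar1 RNA therefore does not check the label of the MII libraries, while Zar1l was lower in every Zar1/2-null library than in every WT library of its stage. The deposited values had been scaled by the authors to ERCC spike-in RNA, by recovered factors of 1 in WT growing, 0.862 and 0.779 in Zar1/2-null growing, 0.836 and 0.697 in WT GV, 0.533 and 0.583 in Zar1/2-null GV, 0.225 and 0.228 in WT MII and 0.283 and 0.252 in Zar1/2-null MII oocytes, so a level is relative to the spike-in added per 10 oocytes. Calls were made at an adjusted p under 0.05, by limma on log2(FPKM + 1) with Benjamini-Hochberg adjustment over all 11502 genes. Each was repeated without the ERCC factors and with library medians made equal (median scaling). Counts of members called under either of these alone are given without the share of all genes, and describe the processing. With the ERCC factors the median log2 fold change of all genes, Zar1/2-null over WT, was -0.16 in growing, -0.38 in GV and 0.06 in MII oocytes, and without them it was 0.08, -0.03 and -0.01. Of 18 granulosa and cumulus cell markers, 12 stayed under 1 FPKM in every library and Ptx3 was at 0 in all 12, and their summed level was 5.3 to 34.9 FPKM beside 2427 to 19996 FPKM for 12 oocyte markers. That sum was 34.9 and 30.5 in WT against 24.3 and 16.6 in Zar1/2-null growing oocytes, 20.5 and 17.9 against 14.1 and 16.1 at GV, and 5.3 and 5.62 against 8.6 and 7.37 at MII. Cyp19a1 was the largest part in WT growing oocytes, with means of 17.9 FPKM in WT and 5.13 in Zar1/2-null libraries. In the Zar1/2-null growing libraries Nr5a2 was the largest part, with a mean of 9.83 FPKM. Of the 6 markers tested, Cyp19a1, Kitl and Inha were called lower and Nr5a2 higher in growing oocytes, beside 24.4% and 10.6% of all genes. At GV Fshr and Kitl were called lower and Inha higher, beside 40.6% and 2.83%. At MII none was called. The part of these markers in the results was not tested.

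WT GV oocytes held USP transcripts at very unequal levels, with Usp46 far above the rest. FPKM is a level per transcript length, so levels are compared between genes on this scale. Usp46, which works with the cofactors WDR48 and WDR20, had a mean of 150.1 ± 17.8 FPKM (SD, n = 2 libraries) in WT GV oocytes, at the 93.9th percentile of the tested genes. It was followed by Usp9x, a very large X-linked member, at 74.9 ± 5.88, Usp15, a regulator of SMAD signalling, at 72.2 ± 6.69, and Usp16, a histone H2A deubiquitinase, at 68.8 ± 2.89. The levels of Usp9x, Usp15 and Usp16 did not differ beyond the spread of their libraries. Usp3, another histone deubiquitinase, was at 60.9 ± 7.84, Usp7, which controls MDM2 and p53, at 54.5 ± 1.14, and Usp28, which stabilises MYC, at 40.5 ± 2.2. Usp39 at 32.1 ± 3.58, Usp2 at 31.1 ± 1.89 and Usp19, which is anchored in the endoplasmic reticulum, at 28.6 ± 3.29 completed the 10 highest and did not differ beyond their spread. At the low end of the tested members stood Usp35 at 0.486 ± 0.080, Usp12 at 0.782 ± 0.149 and Usp6nl at 1.04 ± 0.0204 FPKM.

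Usp46 was the highest member in WT growing oocytes also, at 231 and 204 FPKM. In WT MII oocytes Usp16 led at 39.9 and 46.6, before Usp15 at 35.2 and 39.2 and Usp46 at 27.0 and 38.1, which overlapped with each other. In the Zar1/2-null libraries the highest member was Usp46 in growing oocytes (113 and 98.7, overlapping with Usp3 at 105 and 97.8), Usp3 at GV (51.1 and 71.9, overlapping with Usp46 at 51.4 and 63.1) and Usp16 at MII (37.7 and 39.8). Usp46 alone made up 18.4% and 16.1% of the summed FPKM of the 52 members in WT growing oocytes and 11.6% and 10.3% in the Zar1/2-null ones, and 16.9% and 15.9% against 8.66% and 10.3% at GV. These shares do not depend on the scaling, and at MII they were 9.91% and 11.1% against 8.71% and 7.16%.

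**Figure D1:**
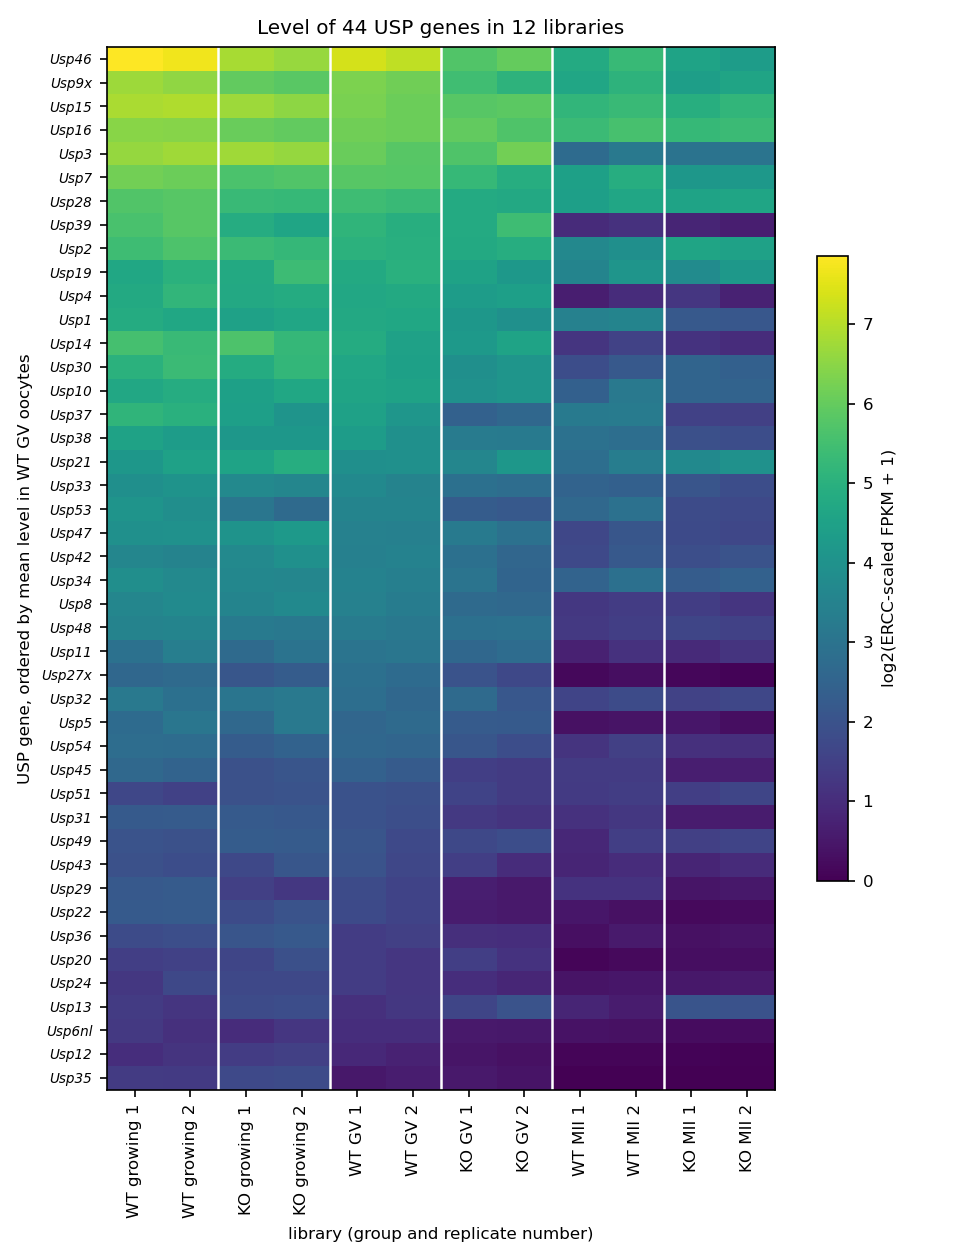
Heat map of the 44 tested USP genes (rows, ordered by mean level in WT GV oocytes) in the 12 libraries (columns, 2 per group; KO is Zar1/2-null), coloured by log2(ERCC-scaled FPKM + 1). Usp46 is the top row, most rows darken from growing to MII oocytes on the deposited scale, and Usp13 near the bottom is brighter in the KO columns at all 3 stages.

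The 8 members that stayed under 1 FPKM in all 12 libraries were Usp17l5, Usp18, Usp25, Usp26, Usp40, Usp44, Usp50 and Usp9y. Usp18, which removes the ubiquitin-like ISG15 after interferon, peaked at 0.114 FPKM, and Usp44, known from the spindle checkpoint, at 0.191. Usp25, the paralog of the abundant Usp28, peaked at 0.169, while the X-linked germ-line copy Usp26 came closest to the limit at 0.862. Usp9y, on the Y chromosome, was listed at 0 in all 12 libraries. Usp50 and Usp8 overlap on opposite strands and could not be told apart by strand in these libraries, but neither annotated transcript shared a 50-base window with another coding gene. Usp17l5 shared 44.2% of its 50-base windows with Dub2a, and only reads that mapped uniquely had been kept.

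In growing oocytes, Usp53, Usp46, Usp39, Usp29 and Usp37 led the members that were lower without ZAR1/2, and Usp13 led the few that were higher. Of 44 members, 10 were called lower and 4 higher, beside 24.4% and 10.6% of all genes tested. The median log2 fold change of the members was -0.18 beside -0.16 over all genes, 0.09 beside 0.08 without the ERCC factors and 0.04 beside 0.03 with median scaling. Usp53, a tight junction protein of the family, was at 15.8 and 13.6 FPKM in the WT and 7.54 and 5.51 in the Zar1/2-null libraries. Usp46 was at 231 and 204 against 113 and 98.7. Usp39 was at 48.1 and 55.5 against 28.2 and 23.5. In all of them every Zar1/2-null library lay below both WT libraries. Such non-overlap of 2 against 2 libraries, here and below, describes genes picked by their calls and is no further support for them. Usp29, a gene beside the imprinted Peg3, was at 3.6 and 3.77 against 1.8 and 1.43. Usp37, which stabilises cyclin A at the start of S phase, was at 34.6 and 30.9 against 20.7 and 15.7. Again the genotypes did not overlap. Usp53 fell by 1.07 on the log2 scale (standard error 0.16, adjusted p = 5.23e-04, limma with Benjamini-Hochberg), Usp46 by 1.03 (standard error 0.19, adjusted p = 0.00209), Usp39 by 0.98 (standard error 0.20, adjusted p = 0.00339), Usp29 by 0.84 (standard error 0.13, adjusted p = 5.45e-04) and Usp37 by 0.82 (standard error 0.17, adjusted p = 0.00389). These 5 were called lower under all 3 scalings, as were 11.4% of all genes, and the counts without the ERCC factors and with median scaling were both 5 of 44. No member passed 3-fold in growing oocytes, beside 0.982% of all genes higher and 3.54% lower.

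The other 5 lower calls in growing oocytes were Usp9x at -0.72, Usp45, a partner of the repair nuclease ERCC1, at -0.57, Usp27x, a histone H2B deubiquitinase, at -0.49, Usp28 at -0.47 and Usp16 at -0.44, as log2 fold changes, and all 5 kept their direction but lost the call under both other scalings. Usp13, the paralog of the chain-disassembling Usp5, was at 2.45 and 2.66 FPKM in Zar1/2-null and 1.59 and 1.3 in WT growing oocytes, and rose by 0.54 on the log2 scale (standard error 0.16, adjusted p = 0.0191). Usp35 was at 2.31 and 2.46 against 1.55 and 1.54 (0.41, adjusted p = 0.0141), Usp51, a histone H2A deubiquitinase, at 2.89 and 3.07 against 2.18 and 1.84 (0.41, adjusted p = 0.0365) and Usp12 at 1.64 and 1.8 against 1.03 and 1.25 (0.35, adjusted p = 0.0398). All 4 stayed under 4 FPKM and did not overlap between genotypes. Usp35, Usp51 and Usp12 were called higher under all 3 scalings, as were 9.8% of all genes, and Usp13 was called without the ERCC factors and not with median scaling (adjusted p = 0.0553). Single libraries decided some of these calls: Usp51 and Usp16 lost theirs without any one of the 4 growing libraries (adjusted p 0.058 to 0.179 and 0.0851 to 0.162), Usp13 without Zar1/2-null replicate 2 or WT replicate 2 (0.0977 and 0.111), Usp12 without Zar1/2-null replicate 2 or WT replicate 1 (0.134 and 0.154) and Usp9x without the same libraries as Usp12 (0.0735 and 0.0744). Usp27x lost its call without Zar1/2-null replicate 1 or either WT library (0.0571 to 0.101) and Usp28 without Zar1/2-null replicate 2 or either WT library (0.060 to 0.101). The number of higher calls was 1 without Zar1/2-null replicate 2 and 2 without either WT library, and that of lower calls 6 without WT replicate 1.

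In GV oocytes Usp37, Usp46, Usp53, Usp29 and Usp22 led the members that were lower without ZAR1/2, and Usp13 alone was called higher on the deposited scale. Of 44 members, 24 were called lower and 1 higher, beside 40.6% and 2.83% of all genes. The median log2 fold change of the members was -0.51 beside -0.38 over all genes, without the ERCC factors -0.16 beside -0.03 and with median scaling -0.06 beside 0.07. Usp37 was at 21.6 and 16.5 FPKM in the WT and 4.38 and 5.23 in the Zar1/2-null libraries. Usp46 was at 163 and 138 against 51.4 and 63.1. Usp53 was at 10.8 and 10.6 against 3.92 and 3.63. The lowest WT library was above the highest Zar1/2-null library in all of them. Usp29 was at 2.44 and 2.01 against 0.569 and 0.447. Usp22, the histone deubiquitinase of the SAGA coactivator, was at 2.4 and 1.98 against 0.525 and 0.462. Both were under 1 FPKM in the Zar1/2-null GV libraries and above it in the WT ones. Usp37 fell by 1.78 on the log2 scale (standard error 0.17, adjusted p = 3.84e-05) and its mean was 3.95-fold lower, the one member past 3-fold at this stage, a size that 4.2% of all genes passed, and none was more than 3-fold higher (0.461% of all genes). Usp46 fell by 1.38 (standard error 0.19, adjusted p = 3.39e-04), Usp53 by 1.29 (standard error 0.16, adjusted p = 1.57e-04), Usp29 by 1.1 (standard error 0.13, adjusted p = 1.02e-04) and Usp22 by 1.09 (standard error 0.13, adjusted p = 9.78e-05).

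The next lower calls at GV were Usp9x (-0.98, adjusted p = 0.00172), Usp27x (-0.96, adjusted p = 4.11e-04), Usp45 (-0.94, adjusted p = 2.56e-04), Usp38 (-0.90, adjusted p = 9.42e-04) and Usp33, which acts on receptors that recycle through endosomes (-0.77, adjusted p = 0.00161). The other 14 were Usp7, Usp31, Usp42, Usp8, Usp1, Usp34, Usp54, Usp43, Usp28, Usp30, Usp6nl, Usp51, Usp12 and Usp36, Usp7 being the largest of them (-0.71), and Usp12 was under 1 FPKM in all 4 GV libraries. All 24 kept their direction under the other scalings, but the count was 8 without the ERCC factors and 6 with median scaling. Usp22, Usp29, Usp37, Usp45, Usp46 and Usp53 were called lower under all 3, as were 9.53% of all genes. The 10 named first kept their calls in the deposited scaling whichever library was left out. Usp13 was at 2.1 and 3.04 FPKM in the Zar1/2-null and 1.15 and 1.44 in the WT libraries, which did not overlap, and rose by 0.63 (standard error 0.16, adjusted p = 0.00795), 1.04 without the ERCC factors and 0.96 with median scaling, a call under all 3 that 2.78% of all genes had. That call was lost without Zar1/2-null replicate 2 (0.44, adjusted p = 0.0564) or WT replicate 1 (0.54, adjusted p = 0.0666).

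By role, the WDR48-dependent members Usp1, Usp12 and Usp46 were all called lower at GV, of which Usp46 alone was under the other scalings. The role groups hold 3 to 7 members and are given as counts, beside the 40.6% of all genes called lower. Of the 7 tested chromatin members, Usp22, Usp27x and Usp51 were called lower and Usp3, Usp16, Usp21 and Usp49 were not, with log2 fold changes of -0.0010, -0.29, -0.04 and -0.12. Of the 4 DNA damage members, Usp7, Usp28 and Usp45 were called lower and Usp47 was not (-0.35). Usp8 and Usp33 of the 3 endosomal members were called lower, and Usp20 was not (-0.02). Of the 4 members placed at other organelles, the mitochondrial Usp30 and the nucleolar Usp36 were called lower. None of Usp39 (0.06) and the related Usp4 (-0.35), Usp11 (-0.37) and Usp15 (-0.33) was called at GV, and the proteasome-bound Usp14 (-0.27) was not either. Of these uncalled members, Usp3, Usp4, Usp11, Usp14, Usp15, Usp16, Usp20, Usp21, Usp47 and Usp49 had differences above 0 once the ERCC factors were left out, and Usp39 was called higher with median scaling (0.63), as was Usp3 (0.58).

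**Figure D2:**
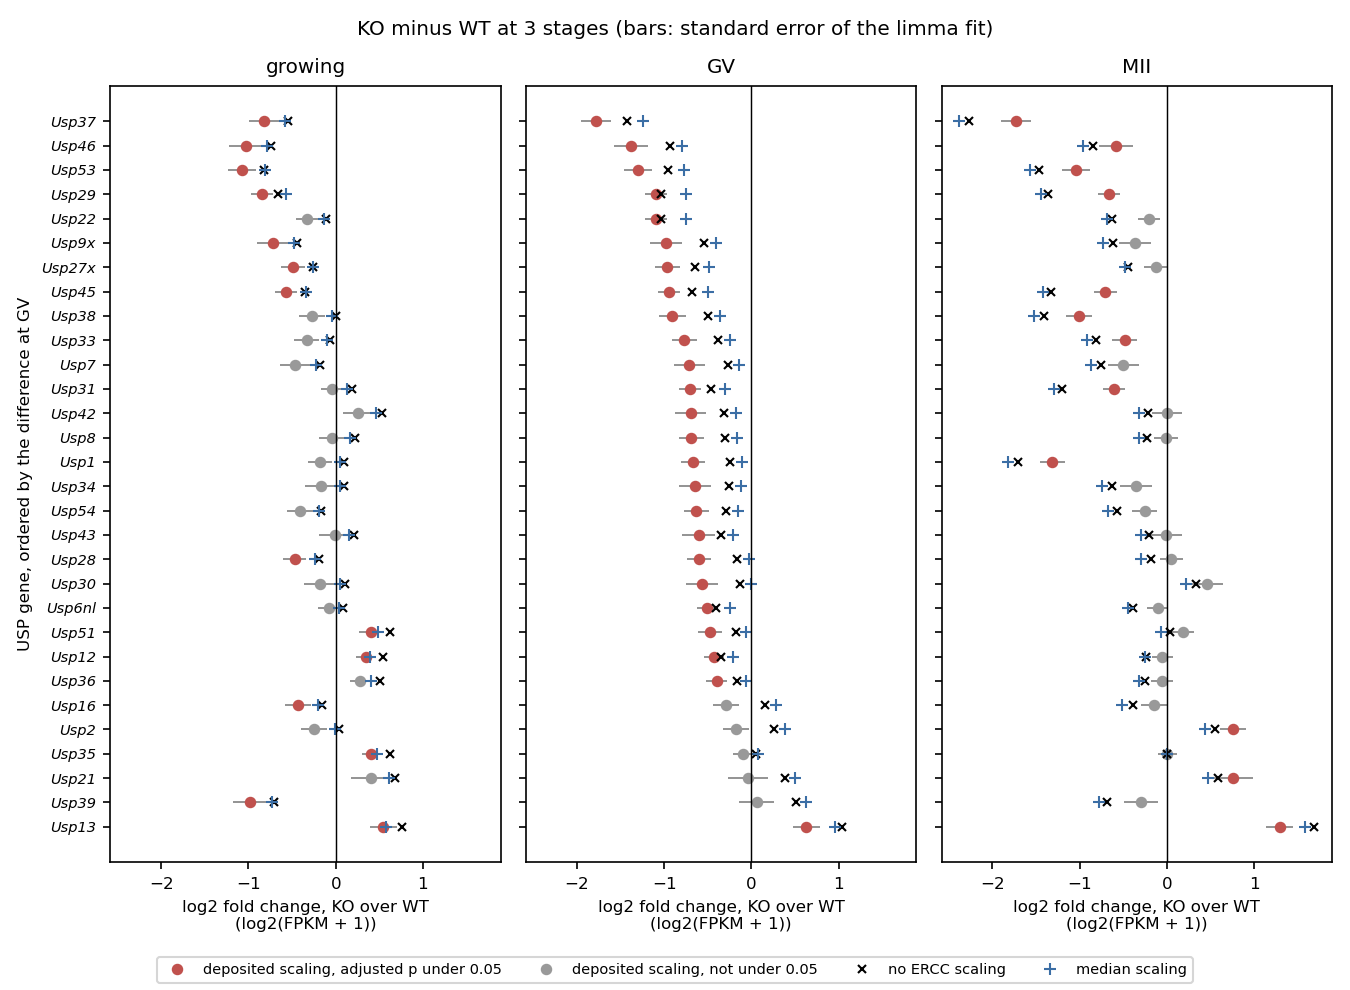
Log2 fold change of Zar1/2-null (KO) over WT on the log2(FPKM + 1) scale at the 3 stages, for the 30 USP genes called at any stage, with limma standard errors as bars. Points are the deposited ERCC scaling (red where the adjusted p was under 0.05), crosses no ERCC scaling and plus signs median scaling: the other scalings lie mostly to the right of the points at GV, where Usp37 is at -1.78, and mostly to the left at MII, where it is at -1.73.

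In MII oocytes Usp37, Usp1, Usp53 and Usp38 were lower without ZAR1/2, and Usp13, Usp2 and Usp21 were higher. Of 44 members, 9 were called lower and 3 higher, beside 10.3% and 21.5% of all genes. The members' median was -0.11 beside 0.06 over all genes, without the ERCC factors -0.37 beside -0.01, and with median scaling -0.45 beside -0.08. Of the 12 oocyte markers 9 were called higher and 1 lower at this stage, with sums of 2755 and 2427 FPKM in WT against 6828 and 5783 in Zar1/2-null libraries, and their part in these results was not tested. Usp37 was at 8.25 and 8.68 FPKM in the WT and 1.88 and 1.83 in the Zar1/2-null libraries. Usp1, which acts on PCNA and FANCD2 in DNA repair, was at 9.85 and 10.7 against 3.62 and 3.43. Usp53 was at 5.33 and 6.57 against 2.44 and 2.3. All Zar1/2-null libraries were under 4 FPKM and all WT libraries over 5. Usp38 was at 6.59 and 6.19 against 2.74 and 2.61. Usp45 was at 1.57 and 1.58 against 0.592 and 0.568. Neither overlapped between genotypes. Usp37 fell by 1.73 (standard error 0.17, adjusted p = 1.37e-05) and was 4.56-fold lower in its mean, again the one member lowered past 3-fold, where 1.32% of all genes were. Usp1 fell by 1.31 (standard error 0.14, adjusted p = 2.38e-05), Usp53 by 1.04 (standard error 0.16, adjusted p = 4.18e-04), Usp38 by 1.01 (standard error 0.15, adjusted p = 3.70e-04) and Usp45 by 0.70 (standard error 0.13, adjusted p = 0.0012). Usp29 (-0.67), Usp31 (-0.61), Usp46 (-0.59) and Usp33 (-0.49) were the other 4.

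All 9 were called lower at MII under each of the 3 scalings, as were 10.3% of all genes. Every one of the 1183 genes called lower on the deposited scale kept its call, so keeping it does not set these members apart. The number of lower calls was 17 without the ERCC factors and 22 with median scaling. These 2 counts have no share of all genes beside them and are not read as a result about the members. Usp46 lost its call at MII without WT replicate 2 (-0.35, adjusted p = 0.292) or either Zar1/2-null library (adjusted p 0.0671 and 0.193), and Usp33 without Zar1/2-null replicate 2 or either WT library (adjusted p 0.0592 to 0.176). Usp13 was at 3.08 and 2.93 FPKM in Zar1/2-null against 0.772 and 0.514 in WT MII oocytes. Usp2, known from the control of cyclin D1, was at 23.2 and 21.5 against 11.6 and 14.0. Usp21, a histone H2A deubiquitinase, was at 12.1 and 14.7 against 6.15 and 9.12. None of the 3 overlapped between genotypes. Usp13 rose by 1.29 (standard error 0.16, adjusted p = 6.28e-05), at least 3.01-fold against a WT mean set to 1 FPKM, where 7.49% of all genes were more than 3-fold higher. Usp2 rose by 0.76 (standard error 0.15, adjusted p = 0.0024) and Usp21 by 0.76 (standard error 0.23, adjusted p = 0.0257). Usp13 and Usp2 were called under all 3 scalings, as were 18.8% of all genes, while Usp21 was not under the other scalings (0.58 and 0.47) and not without WT replicate 1 (0.51, adjusted p = 0.212), Zar1/2-null replicate 1 (adjusted p = 0.0503) or Zar1/2-null replicate 2 (adjusted p = 0.154).

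**Figure D3:**
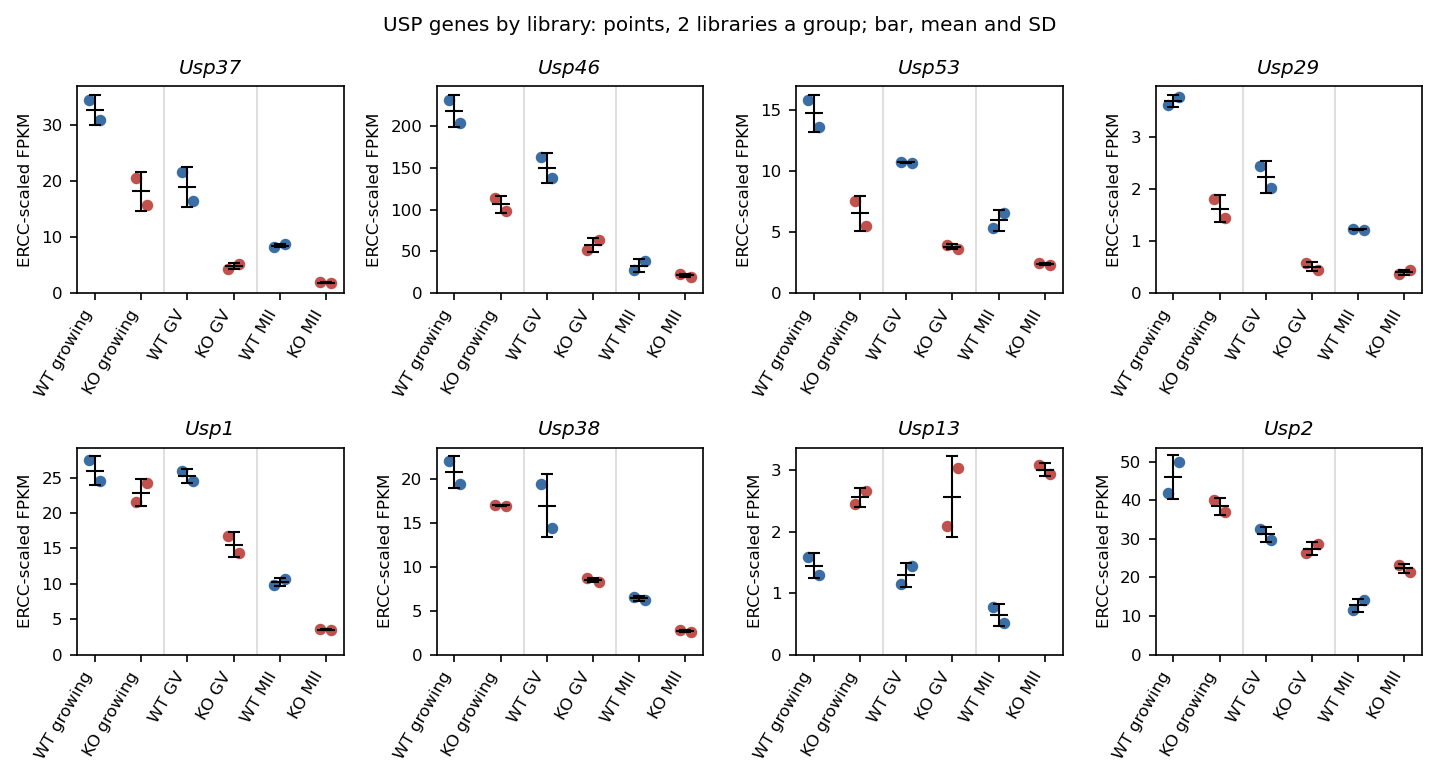
ERCC-scaled FPKM of 8 USP genes in each library of the 6 groups (WT blue, Zar1/2-null red as KO), with the mean and SD of the 2 libraries as black bars. Usp37, Usp46, Usp53 and Usp29 are lower in both KO libraries at every stage, Usp1 and Usp38 were called lower at GV and MII, Usp13 is higher in KO at every stage and Usp2 at MII.

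Across the 3 stages, Usp29, Usp37, Usp45, Usp46 and Usp53 were called lower at each, 5 of 44 members, beside 5.96% of all genes. Usp13 was called higher at each, beside 0.974% of all genes. Usp37 went from 32.7 ± 2.62 FPKM (SD, n = 2) in WT growing oocytes to 19.0 ± 3.6 at GV and 8.46 ± 0.306 at MII, and in the Zar1/2-null ones from 18.2 ± 3.48 to 4.81 ± 0.603 and 1.86 ± 0.0336. It lies at chr1:74482084-74590860 on the minus strand, in a locus where Plcd4, Rqcd1 and Vil1 overlap its annotated span, so that without strand its reads and theirs could not be told apart where they overlap. The annotated Usp37 transcript shared 0.014% of its 50-base windows with other coding genes, the most with Vil1. Usp46 lies at chr5:74394487-74464455 (minus strand) and Usp13 at chr3:32716468-32836993 (plus strand).

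A measure that no scaling enters is the share of all summed FPKM that fell to the 52 members. It was 0.198% and 0.201% in WT against 0.172% and 0.19% in Zar1/2-null growing oocytes, 0.166% and 0.18% against 0.148% and 0.145% at GV, and 0.212% and 0.284% against 0.124% and 0.154% at MII. Both Zar1/2-null libraries were below both WT libraries at each stage, and the WT MII libraries differed from each other more than those of any other group. In growing oocytes Usp46 alone was 18.4% and 16.1% of the member sum in WT and 11.6% and 10.3% in Zar1/2-null libraries. The share without Usp46 is not printed, but by these values it overlapped between the genotypes in growing oocytes. A share also moves with its denominator. At MII the unscaled FPKM of all genes summed to 570887 and 531748 in WT and 742003 and 698753 in Zar1/2-null libraries. An exact two-sided permutation test of 2 against 2 libraries has 0.333 as its smallest p, so these shares are given without a test. The sum itself, on the deposited scale, was 1261 and 1270.0 FPKM against 974 and 957 in growing oocytes, 961 and 865 against 594 and 612 at GV, and 272 and 343 against 259.6 and 272 at MII. At MII the lower WT sum (272.3 FPKM) was barely above the higher Zar1/2-null sum (271.9 FPKM).

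**Figure D4:**
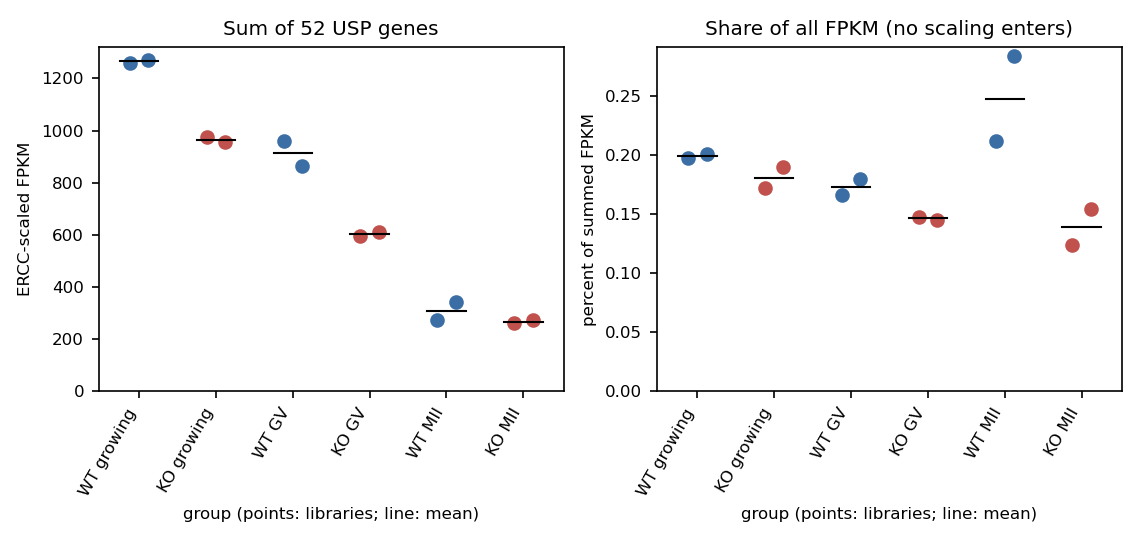
Summed ERCC-scaled FPKM of the 52 USP genes (left) and their percent of all summed FPKM (right) in each library (points) with the group mean (line), KO being Zar1/2-null. The sum falls with stage to between 259.6 and 343 FPKM at MII, while the share at MII is highest in WT, at 0.212% and 0.284%, and lowest in a KO library, at 0.124%.

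From the growing to the GV stage, Usp35, Usp37, Usp14, Usp3 and Usp15 declined most in WT oocytes, on the deposited scale. Of 44 members, 13 were called lower and none higher in WT, beside 28.7% and 2.77% of all genes, and 37 lower and none higher in Zar1/2-null oocytes, beside 55.9% and 4.76%. The WT log2 fold changes were -0.78 for Usp35, -0.76 for Usp37, -0.76 for Usp14, -0.72 for Usp3 and -0.70 for Usp15. In Zar1/2-null oocytes Usp37 (-1.72), Usp22 (-1.34), Usp35 (-1.29), Usp36 (-1.09) and Usp42 (-1.07) declined most. Without the ERCC factors the lower calls were 1 in WT, Usp35, and 10 in Zar1/2-null oocytes. The WT count also fell to 1 without WT GV replicate 2, to 3 without WT growing replicate 2 and to 6 without WT growing replicate 1, and without Zar1/2-null GV replicate 1 the Zar1/2-null comparison had 1 higher call.

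From GV to MII, transcripts of Usp39, Usp4, Usp14 and Usp3 fell furthest in both genotypes. In WT oocytes Usp39 went from 34.7 and 29.6 FPKM at GV to 0.948 and 1.18 at MII. Usp4 went from 25.5 and 26.1 to 0.569 and 1.0. Usp14 went from 27.9 and 21.7 to 1.34 and 1.91. Usp3 went from 66.4 and 55.3 to 5.67 and 8.02 and Usp27x from 6.46 and 5.71 to 0.123 and 0.234. Every MII library was far below every GV library in these 5. The log2 fold changes in WT were -4.0 for Usp39 (standard error 0.20, adjusted p = 6.05e-09), a 30.3-fold lower mean, -3.92 for Usp4, -3.29 for Usp14, -2.99 for Usp3 and -2.59 for Usp27x. In Zar1/2-null oocytes they were -4.37 for Usp39, -3.41 for Usp4, -3.34 for Usp14, -2.93 for Usp3 and -1.86 for Usp1, the 5 largest there. Usp3, Usp4, Usp5, Usp14, Usp20, Usp27x, Usp35 and Usp39 were called lower in WT under all 3 scalings, as were 32.2% of all genes, and in Zar1/2-null oocytes Usp1 joined them (27.9% of all genes).

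The direction of most members in maturation depended on the scaling: 12 of 44 in WT and 17 of 33 called in Zar1/2-null oocytes kept it under all 3. On the deposited scale all 44 were called lower in WT, beside 93.4% of all genes, and 33 in Zar1/2-null oocytes, beside 68.7%, and none higher in either (0.104% and 0.209% of all genes), but without the ERCC factors WT had 15 higher and 15 lower calls and with median scaling 28 higher and 8 lower. Zar1/2-null oocytes had 7 higher and 17 lower calls without the ERCC factors and 17 higher and 9 lower with median scaling. Shares of all genes that kept their direction, or were called under these 2 scalings, are not given. The WT median of the members was -1.15 beside -1.28 over all genes on the deposited scale, 0.08 beside -0.43 without the ERCC factors and 0.77 beside 0.10 with median scaling. Usp16, for example, was at -0.66, 1.07 and 1.95 in these 3 scalings, and Usp28 at -0.83, 0.88 and 1.75. These last 2 genes were picked as examples after their values were seen.

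**Figure D5:**
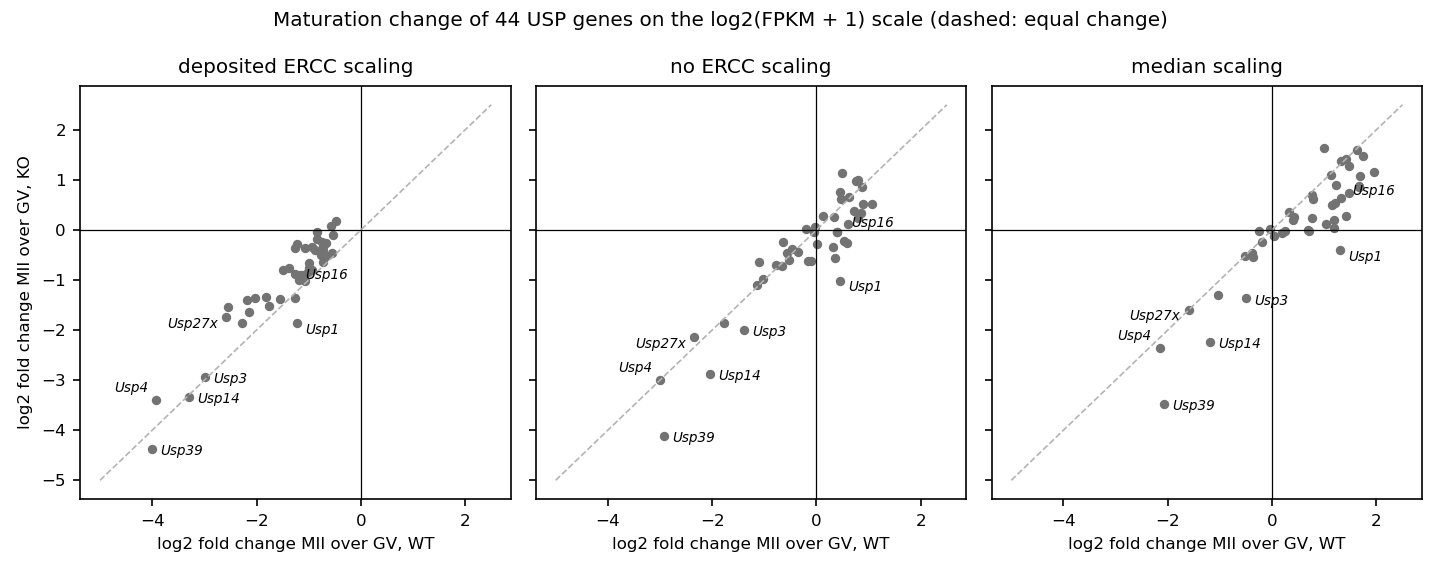
Log2 fold change from GV to MII in WT (horizontal) and Zar1/2-null (vertical, KO) oocytes for the 44 tested USP genes, on the log2(FPKM + 1) scale, under the deposited ERCC scaling, no ERCC scaling and median scaling. Usp39, Usp4 and Usp14 are at the lower left in all 3 panels, Usp1 is below the dashed line of equal change, and the bulk of the genes moves from below 0 to above 0 between the left and right panels.

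Some members changed differently with stage in the 2 genotypes. The difference between genotypes in the MII over GV change was called above 0 for 9 members and below 0 for 1, beside 33.9% and 0.643% of all genes. The 1 below 0 was Usp1, which fell by 1.22 in WT and 1.86 in Zar1/2-null oocytes on the log2 scale, a difference of -0.64 (standard error 0.20, adjusted p = 0.028) that was -1.46 without the ERCC factors and -1.71 with median scaling. The deposited-scale call was lost without any 1 of 7 of the 8 GV and MII libraries, at adjusted p of 0.0512 to 0.0798. The largest above 0 were Usp30 (1.02), Usp2 (0.94), Usp22 (0.89), Usp27x (0.84) and Usp46 (0.79, but -0.17 with median scaling), and none of the 9 was called without the ERCC factors or with median scaling, where Usp8, Usp28, Usp46 and Usp51 turned to or below 0 under one or both. Usp46 lost its call without Zar1/2-null GV replicate 1, either Zar1/2-null MII library, WT GV replicate 1, WT MII replicate 1 or any growing library (adjusted p 0.0561 to 0.171), and Usp30 without WT GV replicate 1 or WT MII replicate 1 (0.0516 and 0.0543). The count of 9 was 5 without Zar1/2-null MII replicate 2, 3 without WT GV replicate 1 and 4 without WT MII replicate 1. For the GV over growing change, 7 members were called below 0 and 1 above, beside 11.3% and 2.58% of all genes. Usp39 was the 1 above 0, at 1.04 (standard error 0.28, adjusted p = 0.035), 1.21 without the ERCC factors and 1.37 with median scaling, and the largest below 0 were Usp37 (-0.95), Usp42 (-0.95), Usp51 (-0.88), Usp12 (-0.78) and Usp22 (-0.76), with Usp12 under 1 FPKM in all 4 GV libraries. Usp39 lost its call when any one library was left out (adjusted p 0.0529 to 0.119) other than Zar1/2-null growing replicate 1 or Zar1/2-null GV replicate 1. Of the 5 below 0, Usp37 and Usp12 were called without the ERCC factors and none with median scaling. Usp42 lost its call without Zar1/2-null GV replicate 2, Zar1/2-null growing replicate 2, either Zar1/2-null MII library, or any WT growing or GV library (adjusted p 0.0502 to 0.108). Usp37 lost it without replicate 1 of the Zar1/2-null GV, Zar1/2-null growing or WT GV group or either WT growing library (0.055 to 0.0902), and Usp22 without Zar1/2-null growing replicate 2 or WT GV replicate 1 (0.0613 and 0.0565). The count of 7 was 4 without Zar1/2-null GV replicate 2, 3 without either Zar1/2-null growing replicate 2 or WT growing replicate 1, and 2 without WT GV replicate 1.

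Close paralogs are given side by side, with their differences in response not tested. Usp46 and Usp12, whose coding regions were 77.2% identical over 1101 aligned bases with no 50-base window in common, stood at 150.1 ± 17.8 and 0.782 ± 0.149 FPKM in WT GV oocytes, and in growing oocytes Usp46 was lower and Usp12 higher without ZAR1/2. That call of Usp12 was lost without Zar1/2-null replicate 2 or WT replicate 1, and at GV both genes were called lower on the deposited scale. Usp13 and Usp5 (68.4% identical) stood at 1.29 ± 0.202 and 5.35 ± 0.375, and Usp5 was not called at growing (0.01), GV (-0.42) or MII (-0.01). Usp16 and Usp45 (62.5%) stood at 68.8 ± 2.89 and 4.13 ± 0.495, and Usp45 was called lower at all 3 stages while Usp16 was called lower in growing oocytes alone. Usp28 (40.5 ± 2.2) and Usp25 (under 1 FPKM, 63.7%) differed in level, as did Usp33 (11.4 ± 1.38) and Usp20 (1.5 ± 0.173, 66.7%), of which Usp33 was called lower at GV and MII and Usp20 at no stage. Usp15 (72.2 ± 6.69) stood above Usp4 (25.8 ± 0.412) and Usp11 (7.35 ± 0.294), at 65.8%, 65.7% and 63.1% identity for the pairs Usp4 with Usp15, Usp4 with Usp11 and Usp11 with Usp15. None of the 3 was called between genotypes at any stage, and in WT maturation Usp15 fell by 0.94 and Usp4 by 3.92 on the deposited scale, where without the ERCC factors Usp15 was at 0.79 and Usp4 at -3.0. Usp22 (2.19 ± 0.30 FPKM in WT GV oocytes), Usp27x (6.08 ± 0.53) and Usp51 (2.85 ± 0.147), at 77.6% identity for Usp22 with Usp27x and 73.7% for Usp27x with Usp51, were all called lower at GV (-1.09, -0.96 and -0.47) on the deposited scale. Usp49, whose annotated transcript shares 68.0% of its 50-base windows with Med20, and Usp34, with 10.8% shared with Ahsa2, are uncertain in level. Smaller shares were found for Usp16 (4.56%, with Cct8), Usp2 (3.96%, with Rnf26) and Usp10 (1.36%, with Gm20388). Cct8 and Rnf26 overlap Usp16 and Usp2 on the opposite strand, where reads without strand could not be told apart.

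Among other deubiquitinases and related genes, listed outside the Usp symbols, the shares called at GV and MII were near those of all genes. In growing oocytes 4 of 31 were called lower and 1 higher, where 24.4% and 10.6% of all genes were. The 31 tested genes were of the OTU, UCH, Josephin and JAMM families and relatives. The list also held Cyld and Uspl1, which are related to USP proteins, and Pan2, a subunit of a poly(A) nuclease. At GV 13 were called lower and none higher, where 40.6% and 2.83% of all genes were. Otud6b (-1.53), Otud1 (-1.37) and Otud4 (-1.34) led them, and without the ERCC factors 4 were lower and 3 higher. Of the 13, Pan2 (-0.53) and Josd1 (-0.51) were at 0.02 and 0.00 with median scaling. At MII 8 were called higher and 4 lower, where 21.5% and 10.3% of all genes were. Josd2 was at 0.532 ± 0.00939 FPKM (SD, n = 2) in WT and 11.4 ± 4.92 in Zar1/2-null oocytes, and Uchl1, one of the most abundant proteins of the oocyte, at 145 ± 37.1 and 714 ± 15.5. With Cops6, a COP9 signalosome subunit (1.99), Josd2 (2.95) and Uchl1 (2.32) were the largest above 0, and Otud4 (-1.67), Otud6b (-1.22) and Mysm1, a histone H2A deubiquitinase (-1.04), the largest below. The directions of these 6 were the same in the other scalings.

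Of 12 tested cofactors of USP proteins, 6 were called lower at GV, beside 40.6% of all genes, led by Atxn7l3b (-1.27) and Atxn7 (-1.15), which belong to or resemble subunits of the Usp22 module of SAGA, and Wdr48 (-0.81), the activator of Usp1, Usp12 and Usp46. Wdr48 was at 9.62 ± 2.99 FPKM in WT and 5.02 ± 1.48 in Zar1/2-null GV oocytes. At MII, Dmwd, a relative of Wdr20, was called higher (1.67, beside 21.5% of all genes) and Atxn7l3b (-0.65) and Atxn7 (-0.60) lower, beside 10.3%, and without the ERCC factors the lower calls of the list were 2 at GV and 4 at MII.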

How the data were processed

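The authors sequenced polyadenylated RNA from 12 Smart-seq2 libraries of 10 oocytes, trimmed the reads to 50 bases, mapped them to mouse genome mm9 with TopHat2 (version 2.1.1), kept uniquely mapped reads and computed FPKM with Cufflinks (version 2.2.1). The deposited FPKM values had been scaled by the authors to ERCC spike-in RNA, and the factors were recovered from the decimals of the values. No counts were used, so the depth behind a value is unknown and no counting interval is given.

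The filter kept the 11502 genes whose highest library reached 1 FPKM. limma (version 3.58.1, R 4.3.3) was fitted on log2(FPKM + 1) to the means of the 6 groups over all 12 libraries, with a trended prior and Benjamini-Hochberg adjustment over all kept genes, at a threshold of 0.05. Fold changes are on the log2(FPKM + 1) scale, which understates the change of low genes. Ratios of group means used a floor of 1 FPKM and a limit of 3-fold. The fitting script was tested on simulated data. Alternatives were no ERCC scaling, median scaling, a pseudocount and floor of 0.1 FPKM, no filter, a replicate block, only the groups compared, and each library left out.

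The named genes were the called members in order of fold change, up to 10 per direction between genotypes and 5 for stage changes, the 10 highest in WT GV oocytes, members under 1 FPKM throughout, close paralogs, and the 3 largest calls per direction in other lists. One further gene list is not reported here. The members, lists and rules were chosen with earlier results of these data known. Sequences were read from mm9 with the GENCODE vM1 annotation, in which all 52 symbols matched, and coding regions were aligned with Biopython 1.88. Protein sequences were not used here.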

Additional observations from a re-analysis of the deposited data

Results flagged for a closer look

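The members below had the largest differences between Zar1/2-null and WT oocytes in the change from one stage to the next, by a test of the difference itself (limma interaction, Benjamini-Hochberg over all genes). Values are Zar1/2-null minus WT on the log2 scale, and the cause of each was not tested. From GV to MII the difference was 1.02 for Usp30 (adjusted p = 0.0116), 0.94 for Usp2 (0.00683), 0.89 for Usp22 (0.00315), 0.84 for Usp27x (0.00814), 0.79 for Usp46 (0.046) and -0.64 for Usp1 (0.028). Without the ERCC factors these were 0.46 for Usp30, 0.29 for Usp2, 0.40 for Usp22, 0.20 for Usp27x, 0.09 for Usp46 and -1.46 for Usp1, of which Usp1 alone passed the threshold, and with median scaling Usp46 was at -0.17.

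From growing to GV the difference was 1.04 for Usp39 (adjusted p = 0.035), -0.95 for Usp37 (0.028), -0.95 for Usp42 (0.0303), -0.88 for Usp51 (0.0151), -0.78 for Usp12 (0.0146) and -0.76 for Usp22 (0.0209). Without the ERCC factors all 6 kept their direction, from -0.91 for Usp22 to 1.21 for Usp39, but Usp42, Usp51 and Usp22 lost the call, and with median scaling Usp39 alone kept it. Leaving out single libraries ended the calls of Usp1, Usp30 and Usp46 from GV to MII and of Usp22, Usp37, Usp39 and Usp42 from growing to GV. Usp39 went from 48.1 and 55.5 FPKM in WT growing to 34.7 and 29.6 in WT GV oocytes, and from 28.2 and 23.5 to 27.0 and 41.6 in the Zar1/2-null ones.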

How the results depend on the processing

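The scaling mattered most, and the cause of each change below was not tested. Counts in this section have no share of all genes beside them and are not read as results about the members. Without the ERCC factors, lower calls between genotypes were 5 (growing), 8 (GV) and 17 (MII). From growing to GV they were 1 in WT and 10 in Zar1/2-null oocytes, with 1 higher call there, and from GV to MII 15 higher and 15 lower in WT and 7 higher and 17 lower in Zar1/2-null oocytes. The genotype difference of the maturation change then had 0 calls above and 6 below 0, that of the growth change 2 below. Past 3-fold, 0 members were lower at GV and 4 at MII. With median scaling the lower calls between genotypes were 5, 6 (with 3 higher) and 22. From growing to GV they were 1 in WT and 7 in Zar1/2-null oocytes, with 2 higher, and from GV to MII 28 higher and 8 lower, and 17 higher and 9 lower. The differences of changes had 0 above and 15 below 0 for maturation and 0 below for growth, and 0 members (GV) and 7 (MII) were lower past 3-fold. Usp46 reversed in the maturation difference with median scaling, to -0.17 (adjusted p = 0.602).

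With a pseudocount and floor of 0.1 FPKM, 1 member was higher in growing oocytes, the growth difference had 0 above and 4 below 0, and 3 (GV) and 2 (MII) members were lower past 3-fold. With only the groups compared in the fit, 1 was higher in growing oocytes, 7 lower from growing to GV in WT, and the growth difference had 0 above and 0 below. With no filter it had 0 above.

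Leaving out 1 library at a time gave 1 to 3 higher and 6 to 8 lower calls between genotypes in growing oocytes, 0 to 1 and 17 to 23 at GV, and 2 to 4 and 7 to 10 at MII. From growing to GV, lower calls were 1 to 11 in WT and 26 to 33 in Zar1/2-null oocytes (0 to 1 higher), and from GV to MII 43 to 44 and 28 to 35. The maturation difference had 3 to 12 above and 0 to 1 below 0, and the growth difference 0 to 1 above and 2 to 6 below.

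Replicate numbers did not pair the samples: over 15 pairs of groups the correlation of same-numbered deviations was -0.117 to 0.163, and 4 were over 0.1. With the replicate block, lower calls at GV were 25 and positive maturation differences 10, other counts were 4 and 10 (growing, higher and lower) and 3 and 9 (MII), and no call among 69 named values changed. The number of libraries, 2 per group, limits the precision, and the depth behind each value is unknown.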
